A study of Drosophila melanogaster with 8 samples.

Results

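Small nucleolar RNPs are particles of a guide RNA and a fixed set of core proteins that modify ribosomal RNA in the nucleolus. Box C/D particles direct 2′-O-methylation and are built on hoip, nop5, Nop56 and the methyltransferase Fib. Box H/ACA particles direct pseudouridylation and hold the pseudouridine synthase Nop60B together with NHP2, Nop10 and Gar1. The U3 particle, a box C/D member, takes part in the processing of the ribosomal RNA precursor, so these proteins belong to the machinery of ribosome production. The larval fat body, the main nutrient-sensing and storage tissue of the fly larva, makes large numbers of ribosomes during growth.

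The 6 genes described are hoip, nop5, Fib and Nop56 of box C/D and Nop60B and NHP2 of box H/ACA. They were chosen by name from a table of 17471 genes, with earlier results of these data known. All 6 were in the table and all 6 were among the 8332 genes tested. Total RNA of the Drosophila melanogaster larval fat body was sequenced in 8 libraries, 2 in each of 4 groups. In 3 groups the larvae were OreR wild type, a standard laboratory strain, and had been fed or starved, for 4 h or for 16 h. The fourth group was homozygous for the CPSF5 allele H11 (CPSF5H11/CPSF5H11) and starved for 16 h. Flies were raised at 25 °C, and the labels give neither the age of the larvae, nor the food or starvation medium, nor what H11 changes in the gene. No fed mutant was analysed here, so an effect of the allele in fed larvae cannot be told apart from one that needs starvation. A difference in stage or strain background between mutant and OreR larvae cannot be told apart from an effect of the allele.

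Values are scaled TPM, which is the authors' TPM divided by a library factor that sets the median gene equal between libraries. A log2 fold change (log2FC) is on the log2(scaled TPM + 1) scale and carries its SE from limma, and a gene passed at a Benjamini-Hochberg adjusted p under 0.05 over all 8332 genes. Means are mean ± SD over n = 2 libraries. The labels do not say that the libraries of a group came from separate animals, so each p measures the spread between these libraries, which may be technical. The depth behind these values is unknown, since TPM holds no read counts.

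The libraries were not alike in other respects. Ribosomal RNA took 7.28% and 7.32% of TPM in both fed libraries, 13.5% and 14.2% in those starved for 4 h, 49.5% and 32.0% in wild type starved for 16 h, and 6.68% and 8.35% in the mutant. The lipoprotein gene apolpp, a fat body marker, stood between 1159 and 2335 in all 8 libraries. Summed fat body markers ranged from 18418 to 34526 in the fed libraries, from 42726 to 67013 at 4 h, from 57511 to 62477 in wild type at 16 h and from 2601 to 3415 in the mutant. The larval serum protein genes Lsp1alpha (9.41 and 9.48) and Lsp2 (8.64 and 16.7) were low in the mutant libraries, where wild type held between 2373 and 24705. Fbp1 stood at 6.56 and 13.0 in fed and 2.13 and 3.61 in mutant libraries, but between 5641 and 23553 in starved wild type. Other fat body markers went the opposite way: Lsp1gamma stood at 132 and 204 in the mutant against 0.0650 and 0.0690 in wild type at 16 h, and the lipid transfer gene Apoltp at 158 and 129 against 22.6 and 15.2. Of the 8 tested, 5 were lower and 2 higher in mutant libraries than in wild type starved for as long. The 7 salivary gland markers, the glue protein genes and Eig71Ee, summed to between 5.39 and 46.5 in fed and to 5.32 and 5.93 in mutant libraries, but to between 12658 and 38453 in starved wild type. All 7 were higher in wild type at both starvation times than in fed larvae and all 7 were below that wild-type level in the mutant. Cpsf5 itself stood at 11.5 ± 0.735 fed, 5.05 ± 2.01 at 4 h, 4.63 ± 0.609 in wild type starved for 16 h, and 3.30 ± 0.415 in the mutant. The difference between mutant and wild type did not pass (log2FC -0.39, SE 0.24, limma adjusted p = 0.256), and this RNA level does not check the genotype label.

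In wild-type larvae all 6 genes were lower after 4 h of starvation than in fed larvae and were still below the fed level at 16 h. Since larval age is not given, a difference in stage between the groups cannot be told apart from starvation. The summed level of the 6 went from 818 and 828 in the fed libraries to 27.1 and 18.2 at 4 h and 33.3 and 31.9 at 16 h. In the mutant at 16 h the sum was 71.5 and 84.0, above the starved wild type and far below the fed libraries. As a share of all protein-coding TPM, which does not depend on the library factor, the 6 genes took 0.298% and 0.273% in fed larvae and between 0.00389% and 0.0102% in starved wild type. The mutant libraries held 0.0231% and 0.0245%. In bulk tissue, fewer cells that make a transcript and less of it per cell cannot be told apart.

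**Figure D1:**
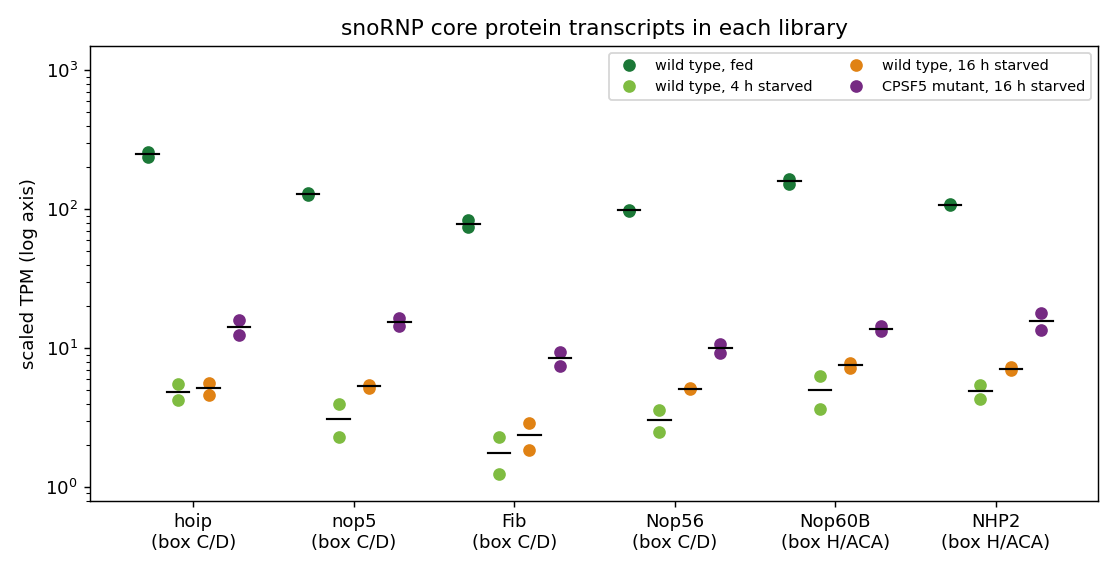
Scaled TPM on a log axis for each of the 6 genes in each of the 8 libraries; each point is a library and each black line the mean of its group of 2. Fed libraries lie between 74.2 and 259, starved wild-type libraries between 1.25 and 7.87, and mutant libraries between 7.50 and 18.0.

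Among the box C/D proteins, hoip (FBgn0015393 in the table; chromosome 2L, 9699791 to 9700459, plus strand, BDGP6) encodes the small protein that first binds the kink-turn of the guide RNA. Its yeast and human counterparts also sit on U4 RNA in the spliceosome. Its level was 259 and 239 in the 2 fed libraries, 5.52 and 4.22 in those starved for 4 h, 5.62 and 4.64 in wild type starved for 16 h, and 12.4 and 16.0 in mutant libraries. It was the most abundant of the 6 in fed larvae, at rank 166 and 180 of 13882 protein-coding genes by TPM, and was at rank 3159 and 3641 at 4 h. Its fall was also the largest of the 6, with a log2FC of -5.42 (SE 0.20, limma adjusted p = 3.93e-05) at 4 h and of -5.35 (SE 0.20, adjusted p = 5.97e-05) at 16 h. The fed mean was 51.2 times the 4 h mean without a pseudocount.

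The gene nop5 (FBgn0026196; chromosome 2L, 6916753 to 6918743, minus strand) encodes the fly counterpart of yeast Nop58, which pairs with Nop56 across the particle. It lies within an intron of x16 on the same strand, and the exons of nop5 and x16 share 0 bases. Its level was 127 and 131 in the 2 fed libraries, 3.94 and 2.28 in those starved for 4 h, 5.20 and 5.44 in wild type starved for 16 h, and 14.4 and 16.6 in mutant libraries. All fed libraries were far above all starved ones, and both mutant libraries lay above every starved wild-type library. The log2FC was -5.02 (SE 0.22, adjusted p = 3.93e-05) at 4 h and -4.37 (SE 0.22, adjusted p = 6.55e-05) at 16 h.

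Its partner Nop56 (FBgn0038964; chromosome 3R, 22419095 to 22421068, minus strand) stood at 97.5 and 99.1 in the 2 fed libraries, 3.60 and 2.48 in those starved for 4 h, 5.13 and 5.06 in wild type starved for 16 h, and 9.19 and 10.7 in mutant libraries. The groups kept the same order as for nop5, with no overlap between any 2 neighbouring groups. Nop56 fell at 4 h (log2FC -4.63, SE 0.18, adjusted p = 3.93e-05) and was lower than fed at 16 h (-4.03, SE 0.18, adjusted p = 5.97e-05).

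Fib (FBgn0003062; chromosome 2R, 23072909 to 23074725, minus strand), the fibrillarin methyltransferase and the classical marker protein of the nucleolus, was the least abundant of the 6. It stood at 74.2 and 83.6 in the 2 fed libraries, 2.29 and 1.25 in those starved for 4 h, 2.89 and 1.84 in wild type starved for 16 h, and 7.50 and 9.39 in mutant libraries. Starved wild-type values overlapped between 4 h and 16 h and lay near the pseudocount of 1, which shrinks the fitted fold. The log2FC was -4.87 (SE 0.25, adjusted p = 5.36e-05) at 4 h and -4.58 (SE 0.25, adjusted p = 7.49e-05) at 16 h, whereas the plain ratio of the fed to the 4 h mean was 44.6.

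Of the box H/ACA proteins, Nop60B (FBgn0259937; chromosome 2R, 24174877 to 24186343, plus strand) encodes the pseudouridine synthase, the fly counterpart of human dyskerin. Its level was 153 and 166 in the 2 fed libraries, 6.36 and 3.64 in those starved for 4 h, 7.22 and 7.87 in wild type starved for 16 h, and 14.4 and 13.3 in mutant libraries. It was second in abundance to hoip in fed larvae, and it and NHP2 had the highest means of the 6 in wild type at 16 h. Nop60B fell at 4 h, with a log2FC of -4.78 (SE 0.24, adjusted p = 5.03e-05), and was lower than fed at 16 h (-4.23, SE 0.24, adjusted p = 8.16e-05).

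NHP2 (FBgn0029148; chromosome 3L, 14801328 to 14802168, minus strand) encodes the H/ACA protein related to hoip in fold. It stood at 107 and 109 in the 2 fed libraries, 5.45 and 4.34 in those starved for 4 h, 7.28 and 7.01 in wild type starved for 16 h, and 13.6 and 18.0 in mutant libraries. Its fall was the smallest of the 6, with a log2FC of -4.22 (SE 0.19, adjusted p = 4.1e-05) at 4 h and -3.74 (SE 0.19, adjusted p = 6.55e-05) at 16 h. The fed mean was 22.1 times the 4 h mean.

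In all, 6 of 6 genes fell at 4 h and 6 of 6 were lower at 16 h, where 26.6% and 27.7% of all genes tested passed as lower (36.2% and 48.9% without the library factor). The median log2FC of the 6 was -4.83 at 4 h and -4.30 at 16 h, beside -0.03 and 0.01 for all genes. Ordered by log2FC at 4 h from the largest fall among the 8332 genes tested, hoip ranked 13, nop5 18, Fib 22, Nop60B 28, Nop56 33 and NHP2 60. Both comparisons use the same fed libraries. Muscle markers, expressed in another tissue, also moved: 9 of 10 tested were lower at 4 h, and all 11 summed to between 149 and 214 in fed and between 34.3 and 57.2 in 4 h libraries. Salivary gland markers moved the opposite way, as given above, and 3 of 7 tested midgut markers were lower at 4 h, with a summed level of between 122 and 210 fed and between 0.649 and 0.744 at 4 h. Haemocyte markers summed to between 4.16 and 5.88 fed and between 18.0 and 22.0 at 4 h, with 3 of 4 tested higher. Neuron markers summed to between 10.2 and 13.0 fed and between 45.9 and 64.4 at 4 h, nearly all of it Syt1, and 1 of 2 tested was higher. The part of these tissues in the fall was not tested.

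Between 4 h and 16 h of starvation none of the 6 genes passed, with limma adjusted p between 0.206 and 0.900. The fitted change was 0.65 for nop5 (95% confidence interval 0.11 to 1.19), 0.61 for Nop56 (0.17 to 1.04), 0.55 for Nop60B (-0.04 to 1.13), 0.47 for NHP2 (0.01 to 0.93), 0.29 for Fib (-0.32 to 0.90) and 0.07 for hoip (-0.43 to 0.56). At an unadjusted p under 0.05 there were 3 of the 6, nop5, Nop56 and NHP2, beside 1337 of 8332 genes (16.0%). Of all genes, 3 of 8332 (0.036%) passed in this comparison, CG13135, Prip and bdg, all lower at 16 h and named here after their values were seen. Without the library factor the estimates for hoip and Fib were below 0.

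**Figure D2:**
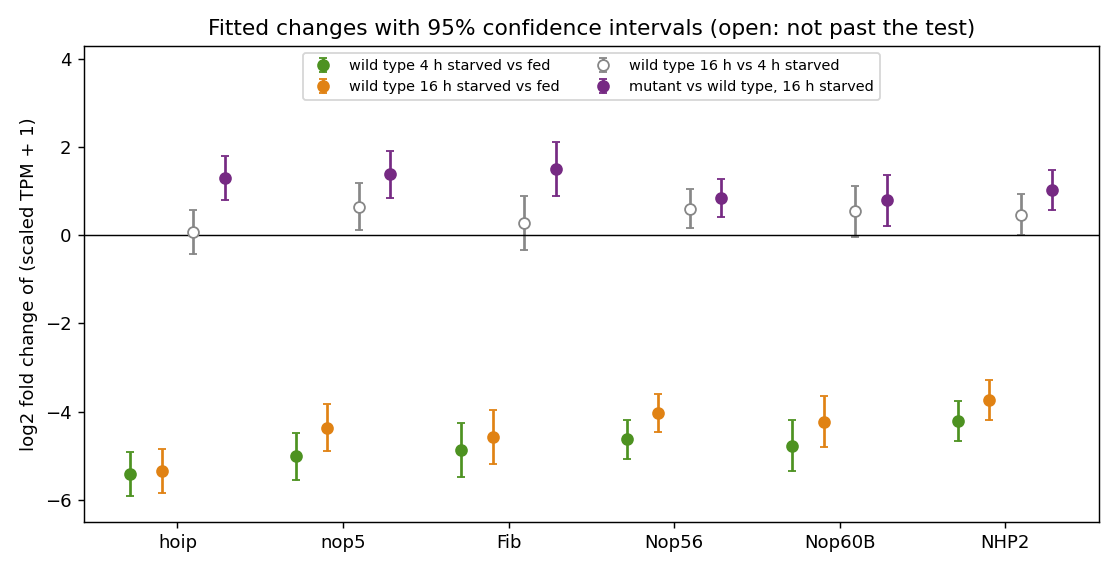
Fitted log2 fold changes of (scaled TPM + 1) with 95% confidence intervals for the 6 genes in 4 comparisons; filled points passed at an adjusted p under 0.05 and open points did not. Both starvation comparisons lie between -3.74 and -5.42, the change from 4 h to 16 h between 0.07 and 0.65, and the difference of mutant from wild type between 0.80 and 1.5.

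At 16 h of starvation all 6 genes were higher in the CPSF5 mutant than in wild type, by between 1.84 and 3.57 times in the ratio of means. Fib differed most (log2FC 1.5, SE 0.25, adjusted p = 0.00734), then nop5 (1.38, SE 0.22, adjusted p = 0.00628) and hoip (1.31, SE 0.20, adjusted p = 0.00579). Smaller differences were found for NHP2 (1.03, SE 0.19, adjusted p = 0.0096) and Nop56 (0.84, SE 0.18, adjusted p = 0.0157). The smallest was that of Nop60B (0.80, SE 0.24, adjusted p = 0.0466). Of all genes tested 21.4% passed as higher and 12.1% as lower in the mutant (46.2% and 3.98% without the library factor), and the median log2FC was 1.17 for the 6 and 0.09 for all genes. None of the 6 was among the strongest rises: Fib ranked 892 and Nop60B 1845 of 8332.

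The count of 6 depended on single libraries. It was 3 without wild-type 16 h replicate 2, where Nop56 (adjusted p = 0.0696), NHP2 (0.0522) and Nop60B (0.119) no longer passed. Nop60B lost its call under 10 of 17 alternatives, and Nop56 lost it without wild-type 16 h replicate 1 or 2 or without mutant replicate 2. The estimate stayed above 0 for all 6 genes in all 17 alternatives. Ribosomal RNA, fat body markers and salivary gland markers differed between these groups by the values given above, and 6 of 7 tested midgut markers were higher in the mutant (summed level 60.3 to 371, against 4.29 to 6.56). Their part in the difference was not tested.

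The mutant libraries were nonetheless far below the fed wild type, with 6 of 6 genes lower, against 22.4% of all genes tested. The log2FC ran from -4.05 (SE 0.20, adjusted p = 0.000158) for hoip to -2.71 (SE 0.19, adjusted p = 0.000239) for NHP2, with a median of -3.13 beside 0.07 for all genes. Mutant means were 5.71% of the fed mean for hoip, 8.70% for Nop60B, 10.1% for Nop56, 10.7% for Fib, 12% for nop5 and 14.6% for NHP2. In wild type at 16 h the same shares ran from 2.06% for hoip to 6.61% for NHP2.

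The balance among the 6 transcripts also differed between the groups. These shares are ratios within a library, so the library factor does not enter them, and they are given as a description, with no test. Transcripts for hoip made up 31.7% and 28.9% of the summed TPM of the 6 genes in fed larvae. They made up 20.3% and 23.2% at 4 h, 16.9% and 14.6% in wild type starved for 16 h, and 17.4% and 19.1% in the mutant, so that neither fed library overlapped any starved one. NHP2 moved the other way, from 13.1% in both fed libraries to between 19.0% and 23.8% in the 6 starved libraries. The 4 box C/D genes together took 68.2% and 66.8% in fed larvae, between 53.3% and 56.5% in starved wild type and 60.9% and 62.8% in the mutant.

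Within the box C/D set, the partners nop5 and Nop56 stood at a ratio of 1.30 and 1.33 in both fed libraries, 1.10 and 0.920 in those starved for 4 h and 1.01 and 1.08 in wild type at 16 h. In the mutant it was 1.56 and 1.55, the highest of the 4 groups. The ratio of hoip to nop5 was 2.04 and 1.82 fed, 1.40 and 1.85 at 4 h, 1.08 and 0.854 in wild type starved for 16 h, and 0.865 and 0.964 in the mutant. The transcript of the RNA-binding subunit was therefore in excess over nop5 in fed larvae and close to it in both groups at 16 h.

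**Figure D3:**
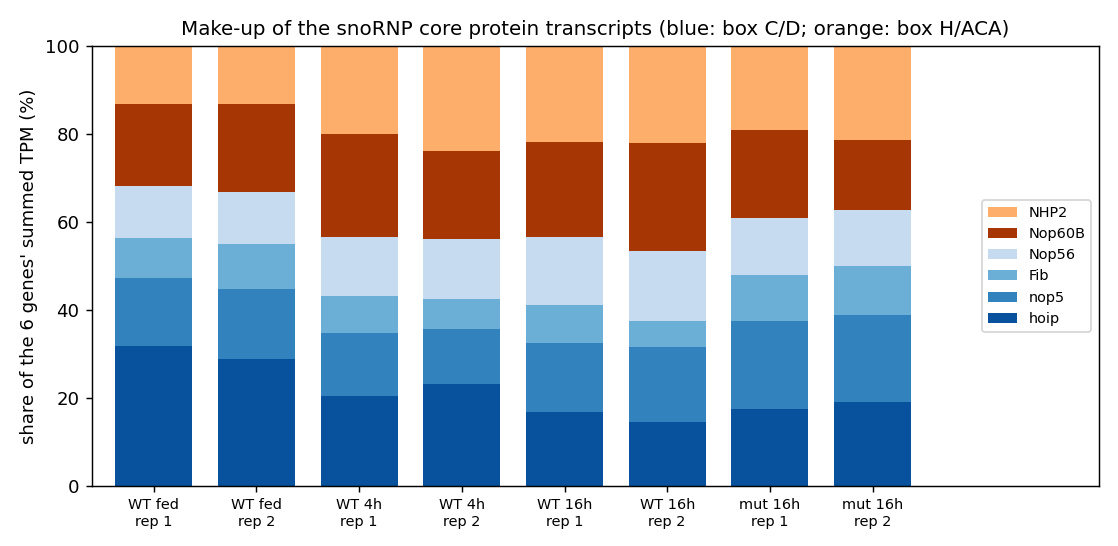
Share of each gene, in percent, in the summed TPM of the 6 genes for each library, with box C/D genes in blue and box H/ACA genes in orange; WT is wild type, mut the CPSF5 mutant and rep the replicate. The hoip share is largest in the fed libraries (31.7% and 28.9%) and the NHP2 share smallest there (13.1%).

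The annotation gives nop5, Fib and Nop56 a single isoform each, hoip and NHP2 2 each and Nop60B 5. The 2 isoforms of hoip share a coding length of 381 nt and those of NHP2 one of 480 nt. The annotated 3′ UTR is 79 nt in both hoip isoforms, 106 nt in NHP2-RA and 220 nt in NHP2-RB. Most hoip TPM was assigned to hoip-RA in fed larvae (88.3% and 91.7%), and in starved wild type its share ran from 0.0% to 100% between libraries, at levels of at most 5.75 TPM for the whole gene. NHP2-RA held 79.1% to 98.4% of the NHP2 transcripts in every library.

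Nop60B was the one of the 6 genes with isoforms that end far apart. Nop60B-RA ends at position 24177253 of chromosome 2R with an annotated 3′ UTR of 148 nt. The other 4 isoforms end 9090 bases further downstream, and of these Nop60B-RB has 13 exons, the same coding length of 1524 nt as Nop60B-RA and a 3′ UTR of 613 nt. Nop60B-RA made up 58.0% and 75.3% of the Nop60B total in the 2 fed libraries, 77.6% and 80.7% in those starved for 4 h, 79.0% and 78.9% in wild type starved for 16 h, and 37.8% and 13.0% in the mutant. Nop60B-RB made up 38.0% and 22.0%, 15.4% and 14.3%, 12.6% and 17.3%, and 53.2% and 76.1% in the same order. The mutant libraries thus lay outside the range of all 6 wild-type libraries for both isoforms.

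In scaled TPM the isoforms with the downstream end summed to 64.2 and 40.9 in the 2 fed libraries, 1.43 and 0.702 in those starved for 4 h, 1.51 and 1.66 in wild type starved for 16 h, and 8.93 and 11.6 in mutant libraries. Nop60B-RA stood at 88.5 and 124.8 in the 2 fed libraries, 4.94 and 2.94 in those starved for 4 h, 5.71 and 6.20 in wild type starved for 16 h, and 5.43 and 1.74 in mutant libraries. The higher gene total of the mutant was therefore made up of isoforms with the downstream end, while Nop60B-RA was below both wild-type 16 h libraries.

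A test of isoform use was added after these shares had been seen. It covered 5289 isoforms, 7 of them from the 6 genes, on the log2 ratio of an isoform to the rest of its gene. In mutant against wild type at 16 h, 19.6% of the isoforms passed in either direction, and 2 of the 7 did, both of Nop60B. NHP2-RB, with the longer 3′ UTR of its gene, was lower without passing (log2 ratio change -1.23, SE 0.35, limma adjusted p = 0.0551). Nop60B-RA was lower (log2 ratio change -2.70, SE 0.60, limma adjusted p = 0.0286) and Nop60B-RB higher (2.36, SE 0.53, adjusted p = 0.0299). Neither passed without wild-type 16 h replicate 1 (adjusted p = 0.107 and 0.118), without wild-type 16 h replicate 2 (0.124 and 0.119) or without mutant replicate 2 (0.104 and 0.124). Against the fed libraries the mutant passed for 3 of the 7 isoforms (20.1% of all), Nop60B-RA (-2.48, SE 0.60, adjusted p = 0.0352), Nop60B-RB (2.06, SE 0.53, adjusted p = 0.0432) and Nop60B-RF, and these calls were lost under 6, 8 and 4 of 10 alternatives. All annotated exons of Nop60B-RA lie within those of Nop60B-RB, so the split is the authors' estimate from reads over the downstream exons.

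In starved wild type against fed, 1 of the 7 isoforms passed at 4 h (17.8% of all isoforms) and 3 of 7 at 16 h (19.3%), and none passed between 4 h and 16 h (0.0%). Nop60B-RF, one of the isoforms with the downstream end, passed at 4 h with a log2 ratio change of 2.76 (SE 0.37, adjusted p = 0.00659). The change was 2.62 (SE 0.37, adjusted p = 0.00674) after 16 h. Its share of the Nop60B total was 4.00% and 2.53% fed, 7.05% and 5.04% at 4 h and 8.41% and 3.84% at 16 h. Its level was 9.26 and 5.52 TPM fed, but 0.468 and 0.140 at 4 h and 0.326 and 0.229 at 16 h. The starved values lie under the pseudocount of 1, so the size of the fitted change depends on it. Neither call held with a pseudocount of 0.1 (adjusted p = 0.165 and 0.186), where the changes were 1.42 and 1.28. With a pseudocount of 5 the changes were 3.38 and 3.32. At 16 h hoip-RA was lower (-4.45, SE 0.90, adjusted p = 0.0193) and hoip-RB higher (4.45, SE 0.89, adjusted p = 0.0192) relative to each other, with hoip-RA at 37.8% and 0.0% of the hoip total. Both hoip calls were lost with a pseudocount of 0.1 and without fed replicate 1, fed replicate 2 or wild-type 16 h replicate 2 (adjusted p between 0.0700 and 0.141).

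**Figure D4:**
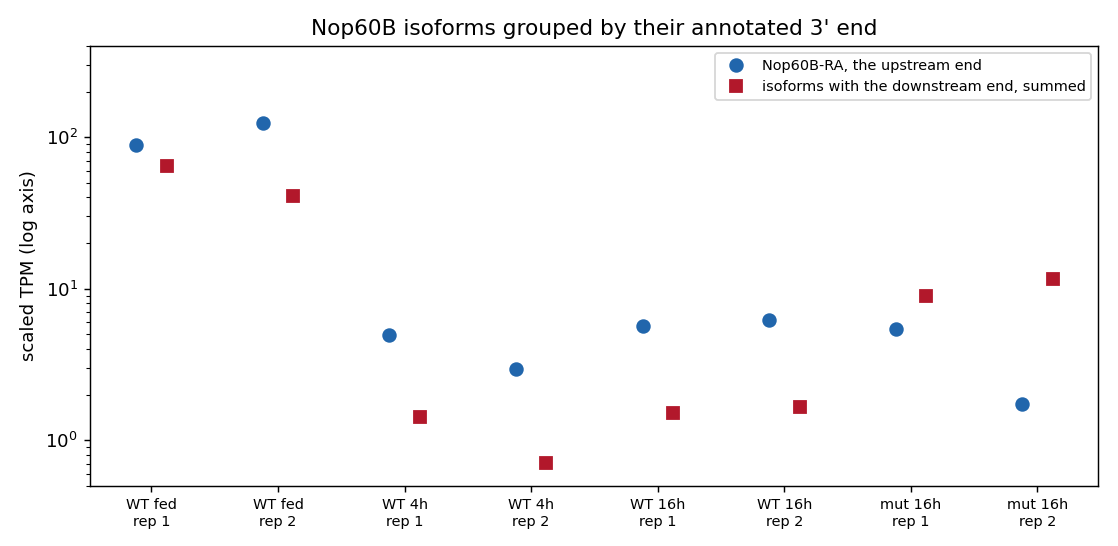
Scaled TPM on a log axis of Nop60B-RA (circles) and of the summed isoforms with the downstream end (squares) in each library; WT is wild type, mut the CPSF5 mutant and rep the replicate. The circle is above the square in all 6 wild-type libraries and below it in both mutant libraries.

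The spans of nop5, Fib and Nop60B hold small nucleolar RNA genes on the same strand. Whether each lies in an intron of every isoform was not checked. In Nop60B, the H/ACA RNA snoRNA:Psi18S-1820 (24176228 to 24176367) had levels of 5136 and 6480 in the 2 fed libraries, 4684 and 4453 in those starved for 4 h, 7674 and 16745 in wild type starved for 16 h, and 7673 and 8753 in mutant libraries. Its log2FC was -0.34 (SE 0.37, adjusted p = 0.508) at 4 h, 0.97 (adjusted p = 0.0723) at 16 h and -0.47 (adjusted p = 0.366) in mutant against wild type. These calls depended on the setting. With quantile normalization snoRNA:Psi18S-1820 was lower at 4 h (-1.50, adjusted p = 0.0161) and higher in the mutant than in wild type (1.38, adjusted p = 0.0301). Without wild-type 16 h replicate 1 it was higher than fed at 16 h (1.56, adjusted p = 0.0075), and its difference in the mutant (-1.06) passed too. In Fib, the small nucleolar RNA gene FBgn0065073 lay between 76.1 and 163 in all 8 libraries and did not pass at 4 h (log2FC -0.72, SE 0.32, adjusted p = 0.117).

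The third, snoRNA:nop5-x16-a in nop5, was listed at 131 and 209 in the 2 fed libraries, 0 and 12.8 in those starved for 4 h, 30.6 and 0 in wild type starved for 16 h, and 9.04 and 10.2 in mutant libraries. Its fall at 4 h passed narrowly (log2FC -5.49, SE 1.80, adjusted p = 0.0465) and lost its call under 7 of 16 alternatives. The other 6 small nucleolar RNA genes of Nop60B lie beyond the end of Nop60B-RA, in the stretch that only the longer isoforms span. None of these exceeded 1.57 scaled TPM in any library, the mutant included. Reads from a host transcript and from the small nucleolar RNA within its span cannot be separated in these values, and the library kit is not one for small RNA.

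The remaining H/ACA core proteins followed the same course. Nop10 stood at 216 and 165 in the 2 fed libraries, 10.8 and 6.93 in those starved for 4 h, 11.9 and 12.5 in wild type starved for 16 h, and 20.9 and 27.5 in mutant libraries. It fell at 4 h (log2FC -4.30, SE 0.27, adjusted p = 9.78e-05) and was higher in the mutant (0.92, SE 0.27, adjusted p = 0.0422). Gar1 was the scarcest, at 14.9 and 15.7, then 1.10 and 0.645, then 2.18 and 2.24, and 3.90 and 3.80 in the mutant. It also fell at 4 h (log2FC -3.13, SE 0.14, adjusted p = 4.22e-05) and was higher in the mutant (0.59, SE 0.14, adjusted p = 0.0245). The mutant calls were lost under 9 of 17 alternatives for Nop10 and 11 for Gar1.

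Both belong to a wider list of H/ACA and assembly factors, of which 8 of 12 tested fell at 4 h and none rose, beside 26.6% of all genes lower and 21.1% higher. The median log2FC was -1.94, beside -0.03 for all genes. Besides Nop10 and Gar1, the largest falls were those of Nopp140 (-4.48, SE 0.20), a nucleolar chaperone of these particles, and CG10341 (-2.84, SE 0.16), the counterpart of the H/ACA assembly factor Naf1. At 16 h 7 of 12 were lower, beside 27.7% of all genes. In the mutant 3 of 12 were higher than in wild type, a share near the 21.4% of all genes, namely Nopp140 (1.24, SE 0.20, adjusted p = 0.00635), Nop10 and Gar1, and the list's median was 0.05 beside 0.09 for all genes. Under 9 of the 17 alternatives that count was 1, and without the library factor it was 5.

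The small-subunit processome, in which U3 works, and other nucleolar factors fell with the core proteins: 19 of 19 tested were lower at 4 h (26.6% of all genes), with a median of -3.50, and 18 of 19 at 16 h (27.7%). The largest falls were those of nclb (-4.25, SE 0.19), the nucleolar GTPase Ns1 (-4.23, SE 0.21), Nnp-1 (-4.02, SE 0.18) and Surf6 (-3.99, SE 0.20). In the mutant 14 of 19 were higher than in wild type at 16 h, beside 21.4% of all genes, with a median of 0.68, led by the GTPase Non1 (1.68, SE 0.20, adjusted p = 0.0024) and Ns1 (1.2, SE 0.21, adjusted p = 0.00844). Non1 was the gene not past the test at 16 h in wild type (-0.37, SE 0.20, limma adjusted p = 0.166), which changed under 2 of 17 alternatives. In the mutant it was above the fed level (1.31, SE 0.20, adjusted p = 0.00306). The 14 became 5 when either wild-type 16 h library was left out, where 14.6% and 12.3% of all genes were higher. They became 7 and 8 without mutant replicate 1 and 2, and 8 when either fed library was left out. They became 8 with rescaling over coding genes and 9 with quantile normalization or a fit to only the groups compared.

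Of the RNA polymerase I and Myc list, 9 of 11 tested fell at 4 h and 1 rose, beside 26.6% and 21.1% of all genes, with a median of -3.29. The polymerase subunits Polr1A (-4.12, SE 0.14), Polr1D (-3.78, SE 0.19), Polr1B (-3.76, SE 0.16) and Polr1H (-3.39, SE 0.37) led the falls. The riser was Mnt (1.19, SE 0.16, adjusted p = 0.00174), which competes with Myc for its partner Max and represses its targets, and it did not pass without the library factor. Myc itself was lower at 4 h (-2.51, SE 0.26, limma adjusted p = 0.000661), and Max did not pass (-0.27, SE 0.17, adjusted p = 0.224). In the mutant 5 of 11 were higher, beside 21.4% of all genes, and Mnt was lower (-0.80, SE 0.16, adjusted p = 0.0135). Polr1H (1.74, SE 0.37, adjusted p = 0.0162) and Polr1E (1.22, SE 0.21, adjusted p = 0.00743) differed most. The 5 became 2 without wild-type 16 h replicate 2 or mutant replicate 2, 3 without mutant replicate 1, and 10 without the library factor, where 46.2% of all genes were higher. The Mnt call in the mutant was lost under 5 of 16 alternatives.

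The U4/U6.U5 tri-snRNP, the spliceosomal particle that holds the counterpart of hoip in yeast and humans, had smaller fitted falls. Of its other proteins 13 of 15 tested were lower at 4 h (26.6% of all genes) with a median of -1.01, led by SmB (-2.09, SE 0.20), CG4849 (-1.63, SE 0.16), SmF (-1.54, SE 0.20) and SmD1 (-1.50, SE 0.23). None of the 15 reached the smallest fall of the 6 snoRNP genes, but the pseudocount of 1 caps the fall of a gene with a low fed level. Fed means of the 15 ran from 3.57 (CG10333) to 26.4 (SmB), and the lowest of the 6 was 78.9 (Fib). The fitted sizes of fall in the 2 sets are therefore not directly comparable. In plain means, which hold no pseudocount, SmB went from 26.4 fed to 5.52 at 4 h. NHP2, with the smallest fall of the 6, went from 108 to 4.89. Gar1, whose fed mean of 15.3 lay within the range of the 15, went to 0.871. Under the 17 alternatives the log2FC of SmB stayed between -2.70 and -1.58, and that of NHP2 between -4.85 and -3.52. With a minimum mean of 5 scaled TPM, which took genes of the list out of the test, the count lower was 7. Under that filter 33.2% of all genes tested were lower. In the mutant 2 of the 15 were lower and 1 higher, beside 12.1% and 21.4% of all genes, with SmE at -0.73 (SE 0.21, adjusted p = 0.0389) and SmB at 0.80 (SE 0.20, adjusted p = 0.0267). Those calls were lost under 11 and 7 of 17 alternatives, and without the library factor SmE was above 0, with 0 of the 15 lower and 8 higher.

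**Figure D5:**
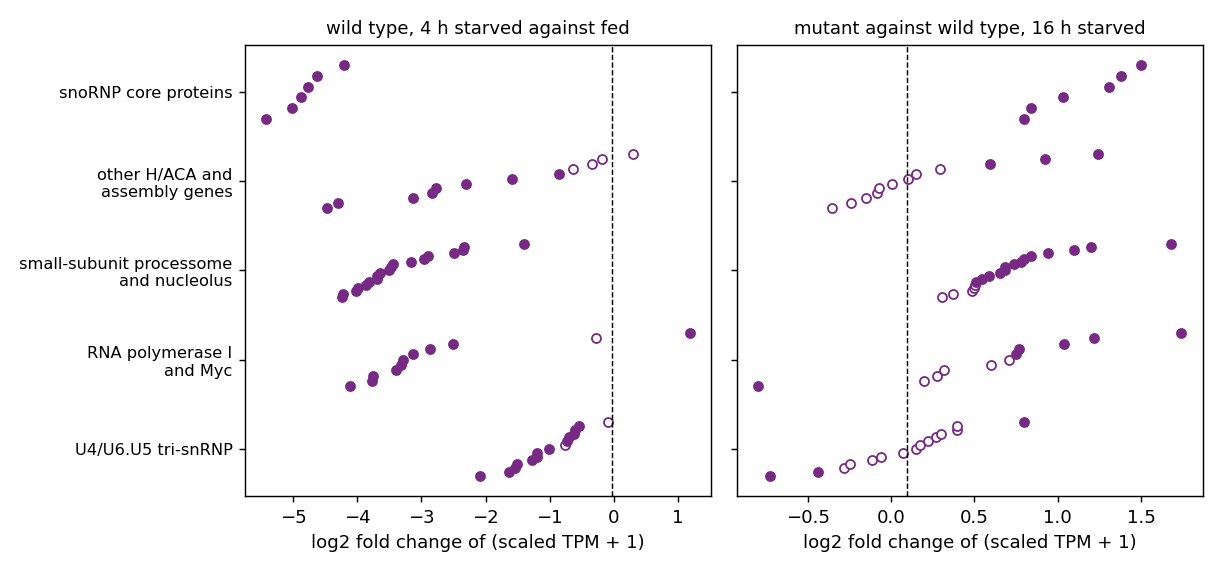
Log2 fold changes of (scaled TPM + 1) for each tested gene of 5 lists at 4 h of starvation against fed (left) and in mutant against wild type at 16 h (right); filled points passed at an adjusted p under 0.05, the height within a row only separates points, and the dashed line is the median of all 8332 genes. The 6 snoRNP core proteins lie at or beyond -4.22 on the left and between 0.80 and 1.5 on the right.

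Across the 8 libraries the 6 genes had nearly one profile, with a Pearson r of log2 values between 0.985 (hoip and nop5) and 0.998 (Nop56 and Nop60B) for the 15 pairs. The libraries form 4 groups with fed larvae far apart, which every such r shares. Many other genes had that profile too: 129 of 7639 protein-coding candidates reached an r of 0.99 with the mean of the 6. The closest were Elp2 (r = 0.999), a subunit of the Elongator complex that modifies tRNA, CG2691, CG32409, CG4069 and FBgn0010926. CG32409, for example, stood at 49.1 and 56.0 in the 2 fed libraries, 2.47 and 1.90 in those starved for 4 h, 3.55 and 3.30 in wild type starved for 16 h, and 6.73 and 7.47 in mutant libraries.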

How the data were processed

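Total RNA was prepared with Trizol, and a stranded kit with ribosomal RNA removal gave the libraries, per the labels' protocols. STAR 2.5.3 and the BDGP6 build were used, per the submitters' processing notes. For the quantifier and the annotation release, the sources used here give no name. Deposited by the authors were TPM of 17471 genes and 34485 transcripts. The later BDGP6 annotation matched 17249 gene identifiers directly and 132 by summed isoforms, hoip and Cpsf5 among them (relative tolerance 0.0001); 90 were unmatched.

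TPM were divided by median-of-ratios factors (0.537 to 1.52). Genes with a mean of 1 or more were tested on log2(scaled TPM + 1) in limma 3.58.1 (R 4.3.3), fitting 4 group means to all 8 libraries with a variance trend, two-sided tests and Benjamini-Hochberg adjustment. The fit had 4 residual degrees of freedom, and moderation contributed another 2.16. An exact permutation test of 2 against 2 libraries cannot give p below 0.333. The isoform test covered mean shares between 5% and 95%, in genes averaging 5 TPM or more (5289 isoforms of 1995 genes) and a pseudocount of 1.

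The members and the lists were chosen with earlier results of these data known. Named from each list were up to 4 genes with the largest change at 4 h and up to 2 in the mutant among those past the test. Also named were Nop10, Gar1, Myc, Max, the 5 genes most like the mean profile, Cpsf5 and the small nucleolar RNAs within the 6 genes. Gonad and imaginal disc markers summed to at most 19.0 scaled TPM in any library. Only the fit was tried on simulated data, drawn on the log scale with independent noise and few changed genes. That simulation does not check the library factor. Replicates were numbered in accession order. Alternatives were 3 other scalings, 2 pseudocounts, 2 filters, no variance trend, a fit to only the groups compared, and leaving out each library.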

Additional observations from a re-analysis of the deposited data

How the results depend on the processing

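The 6 genes gave 102 gene-by-alternative results per comparison. All 102 kept direction and call in the 3 comparisons with fed larvae (4 h, 16 h and mutant). For mutant against wild type, 88 did and 14 kept only the direction, with a count of between 3 and 6 genes when 1 library was left out. For 16 h against 4 h, where no gene passed, hoip changed sign without scaling (-0.32, adjusted p = 0.61), with quantile normalization (-0.0023) and with 1 library left out (-0.11 to 0.22), and Fib did without scaling (-0.056) and with 1 library left out (-0.000557 to 0.56).

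Without scaling, the median gene moved by a log2FC of -0.53 at 4 h, of -0.82 at 16 h and of 0.77 in mutant against wild type, a shift that every value under that setting carries. The shares of all genes lower and higher moved from 26.6% and 21.1% to 36.2% and 9.55% at 4 h, from 27.7% and 21.6% to 48.9% and 6.23% at 16 h, from 12.1% and 21.4% to 3.98% and 46.2% in mutant against wild type, and from 22.4% and 23.0% to 22.4% and 15.3% in mutant against fed. Rescaling over coding genes gave 27.5% and 10.1% at 4 h and 24.6% and 11.6% at 16 h, and quantile normalization 15.2% and 17.8% in mutant against wild type. The number of all genes past the test was 3979 at 4 h, 4110 at 16 h, 2791 for mutant against wild type and 3777 for mutant against fed. With a minimum mean of 5 the numbers were 2470, 2543, 1832 and 2140, where 4262 genes were tested in place of 8332. When 1 library was left out they ran from 2669 to 3926, 2680 to 4292, 1653 to 3057 and 2129 to 4056. Mutant against wild type gave 4197 without scaling. The 3 genes of 16 h against 4 h became 15 without scaling, 1 with rescaling over coding genes, 13 with quantile normalization, 0 and 8 with pseudocounts of 0.1 and 5, 1 with no filter, 0 with a minimum mean of 5, 6 without the variance trend, 0 with only the groups compared, and 1 to 24 when 1 library was left out.

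In mutant against wild type, without scaling, SmE (0.078), FBgn0065073 in Fib (0.74), snoRNA:Psi18S-1820 (0.44) and Cpsf5 (0.33) changed sign. So did snoRNA:Psi18S-1820 with quantile normalization (1.38, adjusted p = 0.0301). When 1 library was left out, snoRNA:nop5-x16-a (-1.58 to 3.51), FBgn0065073 (-0.48 to 0.14) and snoRNA:Psi18S-1820 (-1.06 to 0.10) changed sign. The isoform calls of Nop60B were lost with a pseudocount of 5 (adjusted p = 0.0503 and 0.0766) in that comparison. The cause of these changes was not tested. No paired analysis was possible because the labels carry no replicate numbers. With 2 libraries a group and no read depth, differences near 1 on the log2 scale between the starved groups rest on few values. The spread used is that of each gene pooled over the 4 groups and moderated across genes.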
